A study of Arabidopsis thaliana with 9 samples.

Results

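These are 24 nuclear genes of Arabidopsis thaliana with higher array signals in Col rosettes than in C24 rosettes. In the F1 hybrid of the pair their signals were close to the Col level. Seedlings grew on Murashige and Skoog agar at 22 °C with 12 h of light and 12 h of dark, and whole rosettes were taken 15 days after sowing. The groups were the inbred accession Col-0 (Col here), the inbred accession C24 and the hybrid labelled F1(C24xCol), with 3 biological replicates each and 1 Affymetrix array per replicate, 9 in all. No group carried a transgene or received a treatment according to the labels, which do not say how many plants made up a sample or which line was the seed parent.

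The members were chosen by their measured signals in all 3 groups. Of 13367 probe sets with 1 nuclear gene (13217 genes), 235 had a Col mean of at least 200 and at least 2 times the C24 mean, with the lowest Col array above the highest C24 array. The place of F1 between the parents was written as a position, (F1 − Col)/(C24 − Col) on linear means, where 0 is the Col mean, 1 the C24 mean and 0.5 the mid-parent. A position from -0.25 to below 0.25 was asked for, and 27 probe sets met it. The rule leaves out 3 of them by name (ECS1, UGT85A2 and AT5G45500), which gives 24 probe sets for 24 genes. Since parents and hybrid both entered the choice, the differences between groups given for the members are descriptions, and calls of the fit on these contrasts support nothing about them.

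In a hybrid the alleles of both parents share the same nucleus. Where parental levels differ because of sequences at the gene itself, each allele tends to keep its own output and the hybrid lies near the mid-parent; where they differ through diffusible regulators, both alleles meet the same regulators and the hybrid can resemble one parent. A hybrid level close to the higher parent is called high-parent dominance of expression. Array signals of whole hybrids do not separate the alleles, and in a whole rosette fewer cells of a type and less transcript per cell cannot be told apart. A signal also depends on how well a transcript matches the probes. Whether C24 and Col differ in sequence at the probes was not tested, so a low C24 signal need not mean less transcript.

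The arrays were alike in median signal and in how well replicates correlated, while measures of RNA quality were not looked at. Median signals of the arrays lay between 158.5 and 174.4. Log2 signals of replicates correlated at 0.927 to 0.939 over all probe sets, which are not independent. Of genes of photosystems and electron transport, 5 were named by the annotation, with group means of 1359 to 34735. Of 11 root genes 6 were named, with group means of 4.90 to 139, and 0 of them reached the intensity filter (mean log2 signal of at least 6.49, a signal of 89.9). Means are given ± SD with n = 3 arrays, and signals are MAS5 intensities in linear units.

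Among the members the Col mean ran from 200 (AT3G20370) to 4881 (AT4G33666) and the ratio of Col to C24 from 2.05 to 30.0, with a median of 2.50. The ratio was over 5 for 5 genes and under 3 for 17. F1 reached 78.5% to 112% of the Col mean, with a median of 93.4%. Its mean lay below Col for 20 genes and above Col for 4 (AT1G57590, AT1G71020, AT5G15980 and AT4G01897).

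The widest gap between the parents belonged to AT1G76960. On the arrays it read 248, 384 and 352 in Col, 2.14, 27.7 and 2.92 in C24, and 241, 476 and 245 in F1. The C24 arrays all lay far under the filter signal, so that the ratio of 30.0 rests on values at the bottom of the scale. As log2 of C24 over Col it was -4.91, and -7.02 without C24 replicate 2. F1 overlapped Col, with 1 array above all Col arrays and both others just under the lowest of them.

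AT2G32160 gave 580, 622 and 481 in Col, 51.5, 54.3 and 44.3 in C24, and 547, 691 and 427 in F1. The C24 arrays were again under the filter signal, and the F1 mean was 99.0% of the Col mean, at an 11.2-fold distance between the parents. AT1G62510 was among the brightest, with 5123, 4976 and 3494 in Col, 377, 1353 and 603 in C24, and 4965, 4756 and 3822 in F1. Its F1 mean of 4514 ± 609 lay within the Col arrays and was 99.6% of the Col mean of 4531 ± 901. The log2 ratio of C24 to Col was -2.54 for this gene and -3.21 without C24 replicate 2, the highest C24 array.

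AT5G45430 was the exception in its arrays. It read 1381, 1304 and 1347 in Col, 257, 92.0 and 207 in C24, and 1071, 1044 and 1053 in F1. The F1 arrays agreed within 0.04 on the log2 scale and all lay below the Col arrays, at positions of 0.235 to 0.259. It was the 1 member in which F1 and Col did not overlap; over all 13648 probe sets past the filter, F1 and Col did not overlap in 29.0%. Without Col replicate 2, C24 replicate 2 or F1 replicate 1, or with each array centred on its median, AT5G45430 left the window. This gene sits 9 protein-coding genes from AT5G45500, which the rule left out by name.

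AT2G43535 had 535, 621 and 707 in Col, 110, 133 and 109 in C24, and 528, 493 and 711 in F1. F1 spanned the range of Col, with 1 array just above it and both others below it, and every F1 array was well over C24. For AT3G43540 the signals were 1106, 1373 and 1309 in Col, 376, 351 and 369 in C24, and 1433, 1058 and 1147 in F1. The highest and the lowest of the 6 Col and F1 arrays were both F1, while the C24 arrays were tightly grouped.

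AT1G57590 was the least settled member. Its signals were 395, 324 and 312 in Col, 61.3, 88.8 and 101 in C24, and 360, 527 and 165 in F1. The F1 mean of 351 ± 181 was close to the Col mean of 344 ± 44.6, yet 1 F1 array exceeded all Col arrays and 1 lay nearer to C24 than to Col, at a position of 0.685. Without F1 replicate 2 or F1 replicate 3 the gene no longer met the rule.

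CLE41 (AT3G24770) was the 1 member with a gene name; the other 23 carry a locus identifier alone in the annotation and RefSeq table used, so no role is given for them. CLE41 encodes the precursor of a secreted signal peptide made in the phloem, which the receptor kinase PXY (also TDR) perceives in the vascular cambium. The signal promotes division of cambial cells and restrains their differentiation into xylem. Its signals were 865, 765 and 1021 in Col, 327, 284 and 300 in C24, and 932, 711 and 759 in F1, or 884 ± 129, 304 ± 21.5 and 801 ± 116 as means. F1 overlapped Col and all its arrays lay above those of C24. Without F1 replicate 1, the highest F1 array, the position passed the limit of 0.25.

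Of 7 other genes of this signalling route the annotation named 1, CLE44 (AT4G13195), which encodes a precursor of the same peptide. This list was drawn up after CLE41 was known to be a member. CLE44 gave 405, 303 and 389 in Col, 238, 171 and 382 in C24, and 282, 347 and 419 in F1. Its groups overlapped, and the difference between C24 and Col did not pass (log2 difference -0.54, adjusted p = 0.104 in limma). Of 16 pathway lists with 352 genes, 71 were named on the array, and 0 members belonged to any of them or to the 6 lists of organ markers. So few list genes beside 13217 nuclear genes make a count of 0 likely for any 24 genes, and nothing is read from it.

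**Figure D1:**
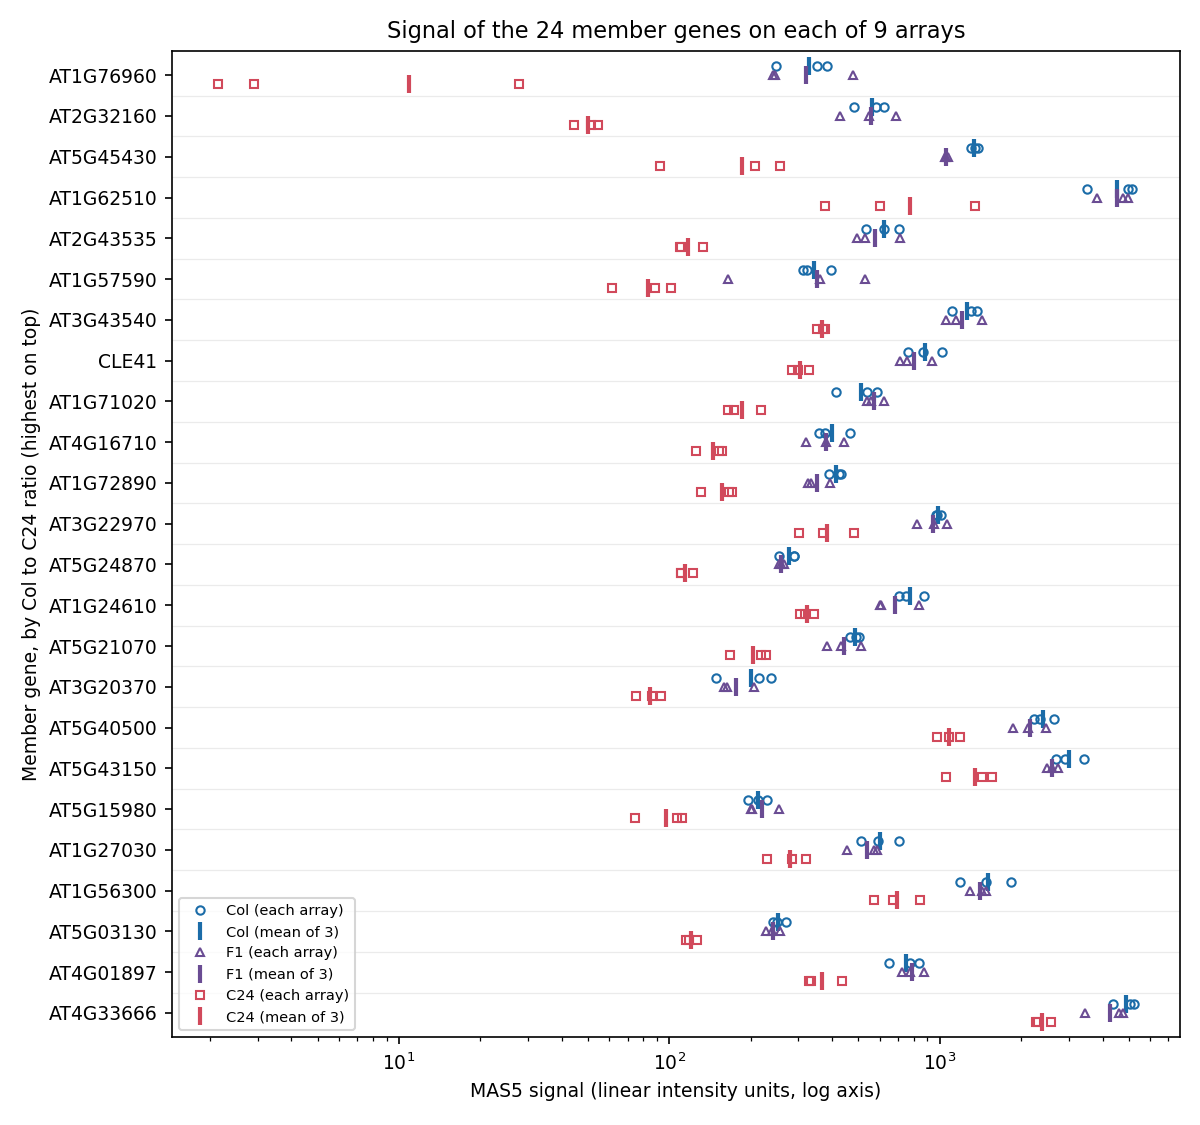
Signal of each member gene on each of 9 arrays (x axis, MAS5 intensity, log axis), by group; open symbols are arrays and short vertical bars are means of 3 arrays. The ranges of the F1 and Col symbols overlap in 23 of 24 genes, AT5G45430 being the exception. The F1 symbols lie to the right of all C24 symbols in 24.

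Of the members with ratios of 2.56 to 2.77, AT1G71020 had the highest F1 relative to Col. It gave 413, 586 and 540 in Col, 174, 165 and 218 in C24, and 557, 623 and 539 in F1, which put the F1 mean at 112% of Col and at a position of -0.183. The groups F1 and Col overlapped. AT4G16710 gave 464, 377 and 357 in Col, 152, 156 and 125 in C24, and 441, 319 and 380 in F1. Here 1 F1 array lay under all Col arrays and both others among them. AT3G22970 gave 979, 965 and 1008 in Col, 480, 302 and 370 in C24, and 826, 1066 and 949 in F1, so that the Col arrays fell inside the wider span of F1.

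AT1G72890 lay at the edge of the window. Its signals were 389, 433 and 423 in Col, 166, 131 and 171 in C24, and 326, 391 and 335 in F1, a position of 0.248. Both F1 replicates 1 and 3 were below all Col arrays. After quantile normalization, or with each array centred on its median, it left the window.

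AT5G24870 was the member with the tightest F1 arrays apart from AT5G45430. It gave 255, 290 and 289 in Col, 110, 122 and 110 in C24, and 258, 265 and 255 in F1. All 3 F1 arrays lay inside the window, at positions of 0.078 to 0.142. The same held for AT5G03130, with 242, 269 and 250 in Col, 118, 127 and 115 in C24, and 257, 240 and 228 in F1, for AT3G43540 and for AT1G62510. These were the 4 members with all 3 F1 arrays inside the window.

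Bright members with ratios of 2.05 to 2.23 lay near the lower limit of 2. AT4G33666 gave 5047, 5226 and 4369 in Col, 2300, 2576 and 2266 in C24, and 4757, 3448 and 4587 in F1. F1 replicate 2 stood apart from both other F1 arrays, on the C24 side of the mid-parent at a position of 0.573. AT5G43150 gave 3403, 2911 and 2688 in Col, 1433, 1561 and 1054 in C24, and 2733, 2501 and 2600 in F1, and AT5G40500 gave 2237, 2355 and 2640 in Col, 1086, 1185 and 976 in C24, and 2475, 1866 and 2112 in F1. In both genes F1 reached into the lower part of the Col range, with 1 F1 array among the Col arrays and both others below them.

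The other members had Col means of 200 to 1503 and ratios of 2.06 to 2.41. AT1G56300 gave 1192, 1482 and 1835 in Col (1503 ± 322), 572, 674 and 844 in C24 (697 ± 137), and 1296, 1429 and 1486 in F1 (1404 ± 98.0). AT1G24610 gave 878, 709 and 748 in Col (778 ± 88.4), 318, 344 and 305 in C24 (322 ± 19.5), and 602, 604 and 839 in F1 (682 ± 136). AT4G01897 gave 835, 777 and 647 in Col (753 ± 96.6), 435, 335 and 328 in C24 (366 ± 59.6), and 875, 774 and 723 in F1 (791 ± 77.0). The F1 arrays of AT1G56300 all lay among those of Col, whereas AT1G24610 had F1 replicates 1 and 2 under Col and AT4G01897 had F1 replicate 1 over it.

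AT1G27030 gave 510, 592 and 707 in Col (603 ± 99.4), 321, 230 and 285 in C24 (279 ± 45.8), and 570, 455 and 588 in F1 (538 ± 72.5). AT5G21070 gave 491, 464 and 503 in Col (mean 486), 167, 218 and 228 in C24 (204 ± 32.6), and 513, 382 and 431 in F1 (442 ± 65.9). In both genes F1 replicate 2 was the lowest of the Col and F1 arrays. The dimmest members were AT5G15980, with 212, 196 and 229 in Col, 107, 74.4 and 111 in C24, and 255, 202 and 201 in F1, and AT3G20370, with 214, 149 and 238 in Col, 93.5, 86.1 and 75.3 in C24, and 159, 205 and 164 in F1. F1 overlapped Col and stood clear of C24 in all of these.

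The values nearest the limits differed little on either side of them. The lowest ratios inside were 2.05 (AT4G33666), 2.06 (AT4G01897) and 2.11 (AT5G03130); just outside lay GH9B8, a gene of the glycosyl hydrolase 9 family, and AT3G20820, both at a ratio that rounds to 2.00, and AT2G04795 at 1.95. The lowest Col means inside were 200 (AT3G20370), 212 and 253, and those outside 142 (AT5G52810), 128 (NMNAT) and 109 (AT4G15955). At the upper end of the window the positions inside were 0.249 (AT5G45430), 0.248 (AT1G72890) and 0.247 (AT4G33666), and those outside 0.255 (AT1G21770), 0.267 (AT2G30600) and 0.271 (AT3G44610). At the lower end the nearest inside was AT1G71020 at -0.183, and the 1 Col-high gene outside was JAL33 at -0.442.

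Positions of the members had a median of 0.10, and of 0.038, 0.095 and 0.165 when read from F1 replicates 1, 2 and 3 alone. Of the 24 genes, 4 lay below 0, 8 from 0 to below 0.1, 5 from 0.1 to below 0.2 and 7 from 0.2 to below 0.25. The next 0.05 of the scale, from 0.25 to below 0.3, held 10 further Col-high probe sets, so that the limit cuts through a continuous distribution. The 211 Col-high probe sets that are not members had a median position of 0.488, and of 0.498, 0.528 and 0.509 on the F1 arrays singly. By class, 190 of the 235 lay from 0.25 to below 0.75, 17 at 0.75 or more and 1 below -0.25.

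**Figure D2:**
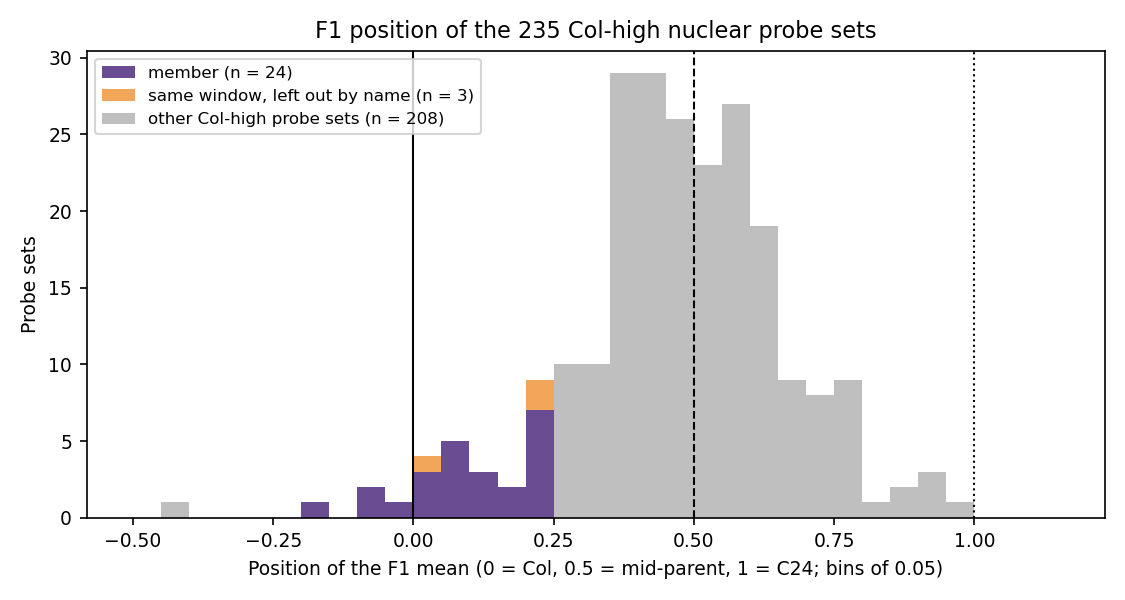
Number of probe sets (y axis) by the position of the F1 mean between Col (0) and C24 (1) for the 235 Col-high nuclear probe sets, in bins of 0.05. The 24 members form the left shoulder of a distribution centred near the mid-parent at 0.5, and no gap marks the limit at 0.25.

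A single position was known only roughly. The SD of a member's position over the F1 arrays had a median of 0.218, which is close to the distance from the centre of the window to its edge. Of the 24 members, 4 had 3 F1 arrays inside the window, 13 had 2, 6 had 1 and AT1G76960 had 0. All F1 arrays lay on the Col side of the mid-parent in 22 genes, the exceptions being AT1G57590 and AT4G33666. The coefficient of variation over F1 arrays had a median of 14.2% for members and 11.2% for the other Col-high probe sets, against 12.5% and 10.6% over Col arrays; these differences were not tested.

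**Figure D3:**
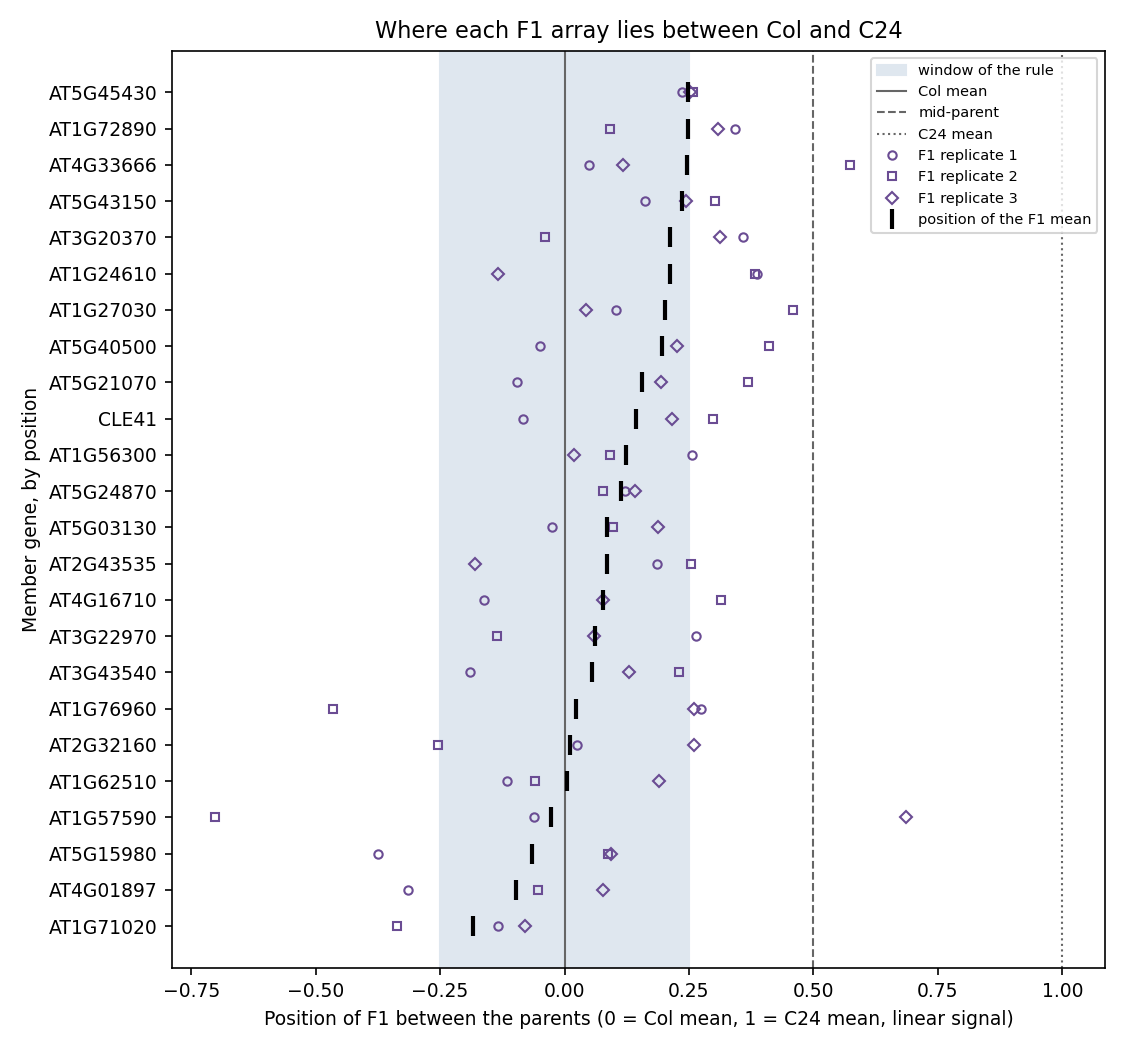
Position of each F1 array (x axis, 0 is the Col mean and 1 the C24 mean on linear signal) for each member, ordered by the position of the F1 mean (black bar); the shaded band is the window of the rule. Single F1 arrays spread from -0.703 to 0.685 in AT1G57590 and within 0.235 to 0.259 in AT5G45430.

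Leaving out 1 array at a time, the rule found 19 to 30 probe sets, 17 to 22 of them among the 24. The genes that met the rule in all 9 such settings were AT1G62510, AT2G32160, AT2G43535, AT3G22970, AT3G43540, AT4G16710, AT5G03130 and AT5G24870. The least stable was AT4G33666, which met it in 3 of the 9, followed by AT1G27030 in 4. Quantile normalization kept 22 of the 24 members, and centring each array on its median kept 20, without AT1G72890, AT4G33666, AT5G43150 and AT5G45430.

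Limma, fitted to 13648 probe sets with an adjusted p threshold of 0.05, was applied to 23 of the members. AT1G76960 did not reach the intensity filter because of its C24 arrays, and the others passed it partly through the groups in which they are high. All 23 were called lower in C24 than in Col (15.2% of all probe sets tested) and all 23 higher in F1 than in C24 (7.55%). Against Col, 0 of 23 were called higher in F1 (6.37%) and 0 lower (5.08%), and 0 had an unadjusted p under 0.05, beside 25.6% of all probe sets tested. The median log2 difference of F1 from Col over the members was -0.11, beside -0.01 over all probe sets tested. The members' differences ran from -0.35 (AT5G45430) to 0.17 (AT1G71020), with standard errors of 0.12 to 0.32, a range that the position window limits. Because the rule used these contrasts, nothing is read from the counts.

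Above the mid-parent, 5 of 23 were called (1.68% of all probe sets tested) and 19 had an unadjusted p under 0.05 (16.3% of all in either direction), again on a contrast that the rule used. They were AT2G32160 (log2 difference 0.84), AT1G71020 (0.73), AT2G43535 (0.64), AT3G43540 (0.57) and AT4G01897 (0.50). The median over the members was 0.43, beside -0.03 over all tested. The count was 3 without Col replicate 2, 1 without F1 replicate 1 and 3 without F1 replicate 2.

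The members lay scattered over the genome, with 8 on chromosome 1, 2 on chromosome 2, 4 on chromosome 3, 3 on chromosome 4 and 7 on chromosome 5. The closest pair, AT1G56300 and AT1G57590, was 50 protein-coding genes apart in the RefSeq order, so that 0 members stood among the 5 genes on either side of another. The RefSeq gene length had a median of 2054 bases for members and 2271 for the other Col-high genes.

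Neighbouring genes played no part in the choice and could be tested. Within 5 protein-coding genes on either side of a member, 67 genes other than members were tested. Of these, 17 (25.4%) were lower in C24 than in Col and 14 (20.9%) higher in limma, beside 14.3% and 15.4% of the 7259 single-gene nuclear probe sets tested and 15.2% and 15.7% of all probe sets tested. Together 46.3% of the neighbours were called, beside 29.7% of the single-gene nuclear probe sets tested and 30.9% of all probe sets tested. The excess itself was not tested. The median log2 difference of the neighbours was -0.01. At least 2-fold lower in C24 were 4 of them (AT5G21060, AT1G71070, AT1G62480 and AT1G62500). Between F1 and Col, 11 neighbours (16.4%) were called, 7 higher and 4 lower in F1. The share called was 10.2% of the single-gene nuclear probe sets tested and 11.5% of all probe sets tested. Of the 17 lower in C24, 4 had F1 in the position window of the members. The same share over all probe sets lower in C24 was not worked out, so nothing is read from this count.

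Both directions occurred beside members. Next to AT5G21070, AT5G21060 gave 621, 611 and 592 in Col, 265, 219 and 274 in C24, and 566, 401 and 405 in F1 (log2 difference of C24 from Col -1.27, SE 0.15, adjusted p = 1.04e-05 in limma). Its groups Col, F1 and C24 followed each other without overlap, with F1 at a position of 0.424. F1 was not called lower than Col there (log2 difference -0.43, adjusted p = 0.0816 in limma). Near AT1G71020, 5 genes on, AT1G71070 averaged 391 ± 34.8 (Col), 85.8 ± 7.31 (C24) and 230 ± 34.7 (F1) (log2 difference of C24 from Col -2.19, adjusted p = 1.81e-07). F1 lay near the mid-parent there, at 0.527, and was lower than Col (-0.77, adjusted p = 0.00962).

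Beside AT1G62510, a pair of neighbours was lower in C24. AT1G62480 gave 2827, 2181 and 1850 in Col, 596, 544 and 578 in C24, and 1432, 1148 and 1095 in F1 (log2 difference of C24 from Col -1.98, SE 0.14, adjusted p = 5.75e-08), and AT1G62500, the adjacent gene, gave 263, 197 and 230 in Col, 147, 89.7 and 82.1 in C24, and 118, 133 and 155 in F1 (-1.15, SE 0.24, adjusted p = 0.002). In neither did F1 reach the Col arrays, with positions of 0.619 and 0.767, whereas AT1G62510 itself stood at 0.005.

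Beside AT1G72890 the direction was the opposite. AT1G72920, 3 genes along, gave 121, 158 and 115 in Col, 647, 604 and 800 in C24, and 989, 1098 and 1462 in F1 (log2 difference of C24 from Col 2.38, SE 0.17, adjusted p = 4.78e-08). AT1G72900, the adjacent gene, gave 182, 184 and 177 in Col, 409, 307 and 530 in C24, and 585, 655 and 363 in F1 (1.16, adjusted p = 0.000717). Both were higher in F1 than in Col, by 3.16 (adjusted p = 7.76e-09) and 1.52 (adjusted p = 0.000261). AT1G72940, 5 genes along, averaged 278 ± 20.8 (Col), 262 ± 74.6 (C24) and 701 ± 27.7 (F1), above all arrays of both parents, and was higher in F1 than in Col (1.34, adjusted p = 0.000192).

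Another neighbour high in C24 was CHI (AT2G43570), a chitinase gene 4 places from AT2G43535. It gave 54.7, 8.91 and 42.6 in Col, 2289, 2145 and 2761 in C24, and 212, 468 and 82.5 in F1 (log2 difference of C24 from Col 6.44, SE 0.59, adjusted p = 6.79e-07). The Col arrays lay under the filter signal, and the difference was 5.63 without Col replicate 2 and 5.23 with 32 added to every signal. F1 was higher than Col (2.87, adjusted p = 0.00456), by 2.06 without Col replicate 2, 2.27 without F1 replicate 2, 3.52 without F1 replicate 3 and 1.91 with 32 added to every signal. On the linear scale, F1 of CHI lay toward Col as the low parent, at a position of 0.093; for AT2G43535 it lay near Col where Col was the high parent. AT4G16670, 5 places from AT4G16710, also was higher in C24, at 161 ± 23.6 against 49.6 ± 8.67 in Col (1.70, adjusted p = 0.000168), with 98.1 ± 4.20 in F1. Its Col arrays, at 58.5, 41.2 and 49.1, lay under the filter signal as well.

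**Figure D4:**
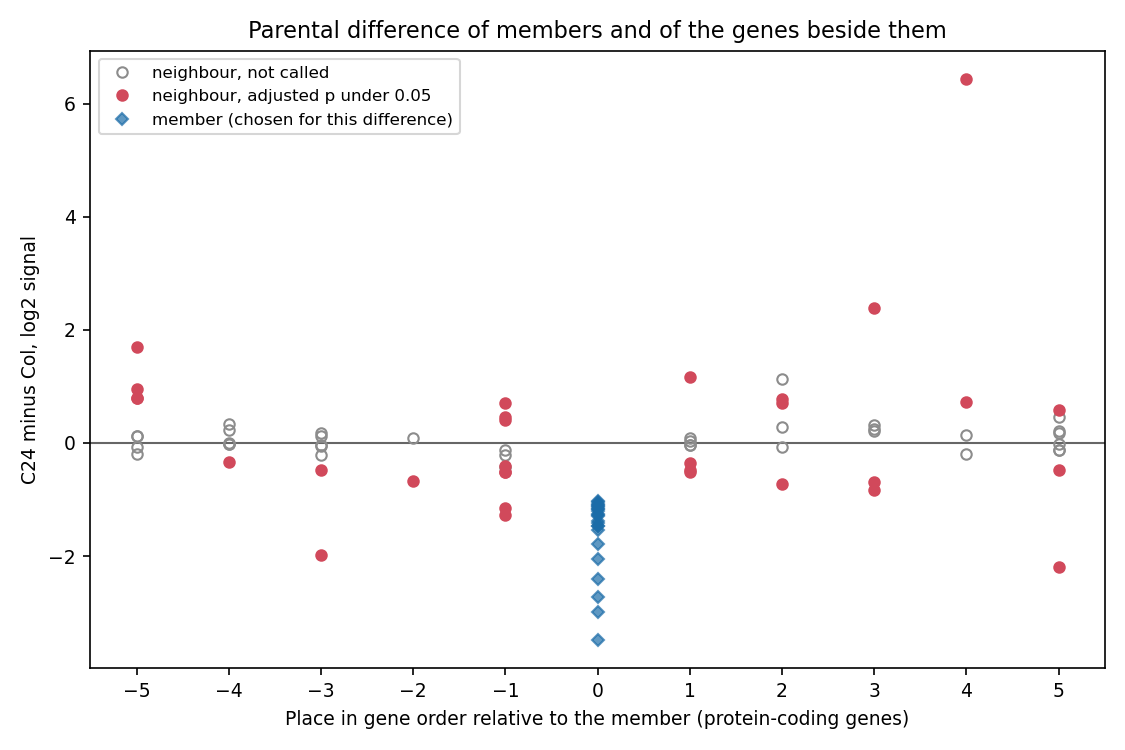
Log2 difference of C24 from Col (y axis) for tested genes within 5 protein-coding genes of a member (x axis, place in gene order); filled circles are neighbours with an adjusted p under 0.05 in limma and diamonds at 0 are the members, which were chosen for this difference. The neighbours lie on both sides of 0, with CHI at 6.44 and AT1G71070 at -2.19 the farthest out.

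The log2 difference of C24 from Col was -1.53 for CLE41 and smaller in size for its tested neighbours. AT3G24715, AT3G24740 and AT3G24820 differed by 0.13, -0.06 and 0.17 and were not called (adjusted p of 0.768, 0.821 and 0.616 in limma). The adjacent AT3G24760 was higher in C24, at 497 against 364 in Col (log2 difference 0.46, adjusted p = 0.0482), the reverse of CLE41. Beside AT5G45430, CLPP4, a subunit of the chloroplast Clp protease, differed by -0.01 (adjusted p = 0.964) and AT5G45410 by 0.09 (adjusted p = 0.606). Beside AT2G32160 both adjacent genes, AT2G32150 and AT2G32170, were lower in C24, with log2 differences of -0.51 (adjusted p = 0.000359) and -0.35 (adjusted p = 0.0257). AT2G32150 gave 2641, 2731 and 2594 in Col, 1771, 2011 and 1825 in C24, and 2473, 2692 and 2676 in F1, so that F1 overlapped Col there too, at a position of 0.053; AT2G32170 lay at 0.714.

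Set against the mirror case, the share of Col-high probe sets with F1 near Col was 11.5% (27 of 235, the 3 left out by name included), and the share with F1 near C24 was 7.23% (17 of 235). Of 252 probe sets high in C24 by the same limits, F1 lay near C24 in 24 (9.52%) and near Col in 85 (33.7%). These shares compare classes that the same 9 arrays define, and their difference was not tested. On the linear scale the window lets F1 differ by a larger fold from a low parent than from a high parent. CHI, at a position of 0.093, had an F1 mean of 254 against 35.4 in Col, whereas F1 of the members was 78.5% to 112% of Col.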

How the data were processed

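The authors deposited linear intensity values; the submitters' processing notes name MAS5 and no version. The 2% trimmed mean lay between 500.049 and 500.054 on the 9 arrays, so differences are relative to each array's total. No further scaling was applied. Arrays give no read depth, and their number limits the precision; batches are not recorded. Of 22810 probe sets, 64 were controls, left out. By the platform annotation 13513 had a single gene, 503 several and 8730 none listed; 13436 matched RefSeq (TAIR10.1), used for names and gene order.

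The members, lists and tests were chosen with earlier results of these data known. Signals were log2-transformed, probe sets under the 40th percentile of mean log2 signal were left out, and limma 3.58.1 in R 4.3.3 was fitted to all 9 arrays, 1 mean per group, with an intensity trend and Benjamini-Hochberg adjustment over 13648 probe sets (two-sided, threshold 0.05). The contrast of C24 with Col was checked on simulated signals with changes put into C24 alone. The F1 and mid-parent contrasts were not checked in that way. The mid-parent was the linear mean of the parents, with a delta-method error. The rule for named genes took the members with the largest ratios and signals, extreme positions, wide F1 spread or values near the limits; AT5G24870, AT1G24610, AT5G21070 and AT1G27030 are given so that every member is accounted for. Neighbours are named if changed at least 2-fold, and others were chosen after their values were seen. The neighbour tests and the CLE41 list were added after seeing the data. Where a neighbour had several probe sets, the brightest was used. Same-numbered arrays were not taken as pairs.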

Additional observations from a re-analysis of the deposited data

How the results depend on the processing

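With Col at least 3 times C24 the rule kept 7 genes in place of 24, as fewer qualify by construction. The median position was 0.170 with group medians in place of means, and 0.070 to 0.132 without 1 array; the cause was not tested. The number of members called above the mid-parent, 5, was 12 with the mean of the log2 parents, 3 with no filter, 2 without an intensity trend and 1 to 6 without 1 array. With the replicate number as a block it was 7, and the block left the other counts of members called at 23, 0 and 23. Same-numbered arrays deviated together weakly (correlations of -0.001 to 0.117), so the numbers were not taken as a pairing. Counts of 23 members called lower in C24, and of 23 called higher in F1 than in C24, ran from 17 with the 60th percentile filter, where 17 were tested, to 24; 0 were called against Col under any alternative run. Neighbours lower in C24 numbered 13 to 18, neighbours higher 12 to 15 and neighbours called between F1 and Col 9 to 14; these alternatives were added after seeing the data. Of 288 recomputed member positions 11 moved by more than their SD over F1 arrays. The 288 include the settings without an F1 array, in which the shift cannot exceed that SD, so the count says little about stability. AT1G57590, with an SD of 0.695, went from -0.027 to 0.311 without F1 replicate 2 and to -0.383 without F1 replicate 3, and was not counted as moved. Of 264 parental log2 ratios 1 moved by more than the root of the summed variances of log2 signals over Col and over C24 arrays. The 264 include the settings without an F1 array, which cannot change a parental ratio. Signals near the bottom of the scale, as for AT1G76960 in C24, limit the size of a ratio.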

Other observations

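The 1 Col-high gene in which F1 went past Col beyond the window was JAL33 (AT3G16450), which encodes a jacalin-related lectin. Its signals were 429, 479 and 721 in Col, 84.9, 78.7 and 74.9 in C24, and 773, 711 and 760 in F1. F1 overlapped Col through Col replicate 3, which stood above both other Col arrays, and the position was -0.442.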
